A study of Homo sapiens with 8 samples.

Results

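The clustered protocadherins are the cell-surface adhesion proteins encoded by the alpha, beta and gamma gene arrays on chromosome 5. Members were all probes for non-control spots whose gene name is PCDHA, PCDHB, PCDHGA, PCDHGB, PCDHGC or PCDHAC followed by a number, which gave 48 genes, measured by 56 probes, of 36337 gene names on the array. They comprised 15 alpha, 17 beta and 16 gamma genes, 8 of which had 2 probes. RNA was compared between FT293 cells, HEK293-derived human embryonic kidney cells made with the Flp-In T-REx system, in which a tetracycline-inducible transgene is integrated at a defined site. The 4 lines expressed GFP alone, GFP-HuR, GFP-TIA1 or GFP-TIAR, and all of them, the GFP control included, were treated with tetracycline for 3 days. HuR, TIA1 and TIAR are RNA-binding proteins that act on the splicing, stability or translation of mRNAs. Each line was hybridized to 2 one-colour arrays, 8 in all on 1 slide. The labels do not say that the 2 arrays of a line came from separate cultures, so p-values measure the spread between these arrays, which may be technical, and a line stands for the derivation of that line as well as for its transgene. For 1 TIA1 array the title and the genotype name TIA1 while the source name reads GFP-TIA2, and it was used as TIA1.

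Each alpha or gamma isoform is made from its own variable first exon, read from its own promoter and spliced to constant exons that all isoforms of the cluster share, whereas beta genes have a variable exon only. A cell, most famously a neuron, transcribes a small subset of the promoters, and the encoded cadherins bind the same isoform on neighbouring cells, so that the subset acts as a surface identity. CTCF and cohesin loop the chosen promoters to distant enhancers, and DNA methylation keeps the others silent. Daughter cells can keep the choice, so that a line can carry a characteristic set of isoforms.

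A promoter element shared by most members, with CGCT at its core, gives the family its usual sequence signature. Its letters are shown here for isoforms detected in the HuR, TIA1 or TIAR line and for isoforms detected in none of these lines. RefSeq promoters of build GRCh38, from 250 bases before to 50 bases after the gene start, were matched by symbol for 40 of the 48 genes. The windows below have 30 bases, run 5′ to 3′ on the plus strand, and capitals mark the letters searched. Alpha promoters were searched for ATGTCGCT. In the first 4 the gene was detected in at least 1 of the HuR, TIA1 and TIAR lines (well above background on both arrays of the line), and in the last 2 in none of these lines. PCDHA1 and PCDHA8, the last 2, were well above background on 1 GFP array.
PCDHA5, chr5:140821540-140821569: ctttcatccacatgATGTCGCTggacaccg
PCDHA7, chr5:140834170-140834199: atgatggccacatgATGTCGCTctttaccg
PCDHA10, chr5:140855839-140855868: cctaaagccaccggATGTCGCTgtcgtcca
PCDHA12, chr5:140875242-140875271: taatcagtcacatgATGTCGCTctacactc
PCDHA1, chr5:140786084-140786113: acattggccacatgATGTCGCTgtacacca
PCDHA8, chr5:140841128-140841157: tttgaagccacatgATGTCGCTgtctacca

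Beta promoters were searched for GTGGCGCT. PCDHB2, PCDHB5, PCDHB13 and PCDHB15 were detected in at least 1 of these lines, and PCDHB7 and PCDHB10 in none.
PCDHB2, chr5:141094542-141094571: ggaagagacgcgggGTGGCGCTgcagcctt
PCDHB5, chr5:141135177-141135206: aattaggacgcctgGTGGCGCTgcaggcta
PCDHB13, chr5:141213863-141213892: tgtgaggacgcgtgGTGGCGCTgcaggata
PCDHB15, chr5:141245312-141245341: aaagacaacgcatgGTGGCGCTgcaggcta
PCDHB7, chr5:141172564-141172593: ccacaaaacgcaagGTGGCGCTgctggcta
PCDHB10, chr5:141192297-141192326: gtggaggccacacgGTGGCGCTgcaggcta

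Gamma promoters were searched for GNCGCTGT, where N is any base. PCDHGA2, PCDHGB1, PCDHGB2 and PCDHGA7 were detected in at least 1 of these lines, and PCDHGC3 in none, although it was well above background on 1 GFP array. The array design lists other gamma isoforms beside PCDHGA2 for its probe.
PCDHGA2, chr5:141338703-141338732: ttaggcctctgagcGTCGCTGTtgaccacc
PCDHGB1, chr5:141350025-141350054: gacaacctctgggcGCCGCTGTcgaccaaa
PCDHGB2, chr5:141359921-141359950: gaaaacctctgagcGTCGCTGTtggtcaaa
PCDHGA7, chr5:141382649-141382678: taaggactcacagcGCCGCTGTtcaccaac
PCDHGC3, chr5:141475880-141475909: ctgggactctgtgtGCCGCTGTcggccaat

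The longer letters were chosen after the promoter letters had been seen, and all motifs were searched on both strands and contain CGCT. ATGTCGCT was in 9 of the 13 matched alpha promoters and in 0.23% of all 35116 promoters in the table. GTGGCGCT was in 12 of 13 beta promoters, all but that of PCDHB1, against 1.15% of all promoters. GNCGCTGT was in 12 of 14 gamma promoters against 4.35%, and also in 5 alpha promoters, where it overlaps ATGTCGCT. ATGTCGCT and GTGGCGCT occurred in no promoter of another cluster. The shorter GGCGCT was in 20 of the 40 member promoters against 21.65% of all, and CGCT alone was in 39 of 40, all but PCDHA9, against 70.01%. Relative to the gene start the motif began at a median position of -52.0 in alpha, -64.5 in beta and -62.0 in gamma promoters. Among promoters with the motif of their cluster, 4 alpha, 6 beta and 9 gamma genes were detected by a variable-exon probe in 1 or more of the 3 lines, and 5 alpha, 6 beta and 3 gamma genes were not. For the only probes of PCDHGA2, PCDHGA3 and PCDHGB4, counted as detected, the array design also lists other gamma isoforms. A match describes letters and not a bound site.

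**Figure D1:**
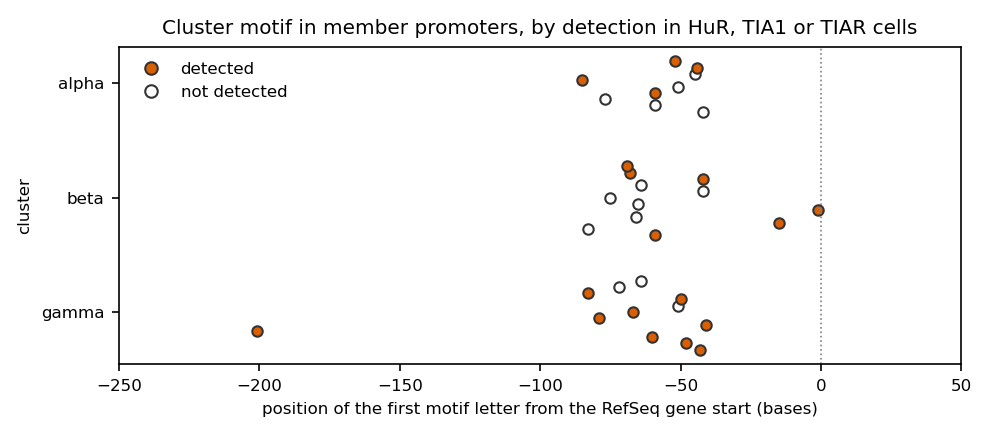
Position of the first letter of the cluster motif relative to the RefSeq gene start, in bases, for members with the motif (filled: detected in 1 or more of the HuR, TIA1 and TIAR lines, open: not detected, points of a cluster spread vertically for legibility). All but 3 of the motifs lie between -85 and -41, and filled and open points share that range.

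Signals were read as log2 processed intensity relative to the 75th percentile of the array, so that a difference of 1 is a 2-fold difference, and levels were compared only between lines and never between probes. A gene was detected in a line when 1 of its probes was well above background, a mark set by the scanner software, on both arrays. The first GFP array (GFP 1) stood apart before any comparison, with 86.0% of the 50599 probes well above background against 53.2% to 58.5% on the other arrays, and with a mean local background of 83.2 against 35.7 to 41.5 intensity units. The HEK293 markers VIM, NEFL, NEFM, PAX2, KRT8, KRT18 and CDH2 were all detected in the HuR, TIA1 and TIAR lines, and 6 of the 7 in the GFP line. Of 6 neuron markers 3 were detected in every line (RBFOX3, SNAP25 and TUBB3), and of 5 fibroblast markers 3 were detected in the HuR, TIA1 and TIAR lines and 1 in the GFP line.

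Each line had 14 to 20 of the 48 genes detected. Of the 24 genes detected in at least 1 of the HuR, TIA1 and TIAR lines, 11 were detected in all 4 lines. The number of genes detected was 20 of 48 in HuR-, 20 in TIA1- and 16 in TIAR-expressing cells, and 14 in GFP-expressing cells. PCDHGB7 counts as undetected in TIAR cells, although 1 of its probes was well above background on TIAR 2 (-4.58). The spot of that probe on TIAR 1 was dropped as an outlier. By cluster, HuR cells had 4 alpha, 6 beta and 10 gamma genes, TIA1 cells 5, 4 and 11, TIAR cells 4, 6 and 6, and GFP cells 5, 4 and 5. HuR and TIA1 cells shared 17 genes, 85.0% of each list. TIAR cells shared 14 of their 16 genes (87.5%) with HuR cells and 14 with TIA1 cells, which was 70.0% of the HuR and of the TIA1 list. GFP cells shared 13 of their 14 genes (92.9%) with HuR cells, 65.0% of the HuR list. By probe, 18 members were well above background on all 4 HuR and TIA1 arrays, of 22 in each line. Over all probes it was 25927, of 28139 and 26531. For TIAR and HuR cells it was 16 members, of 18 and 22, against 26658 of all probes, of 27618 and 28139. For TIAR and TIA1 cells it was 16, of 18 and 22, against 26086, of 27618 and 26531. For GFP and HuR cells it was 15, of 16 and 22, against 26089, of 26821 and 28139. Whether these numbers differ between lines was not tested, since detection moves with the background of an array.

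**Figure D2:**
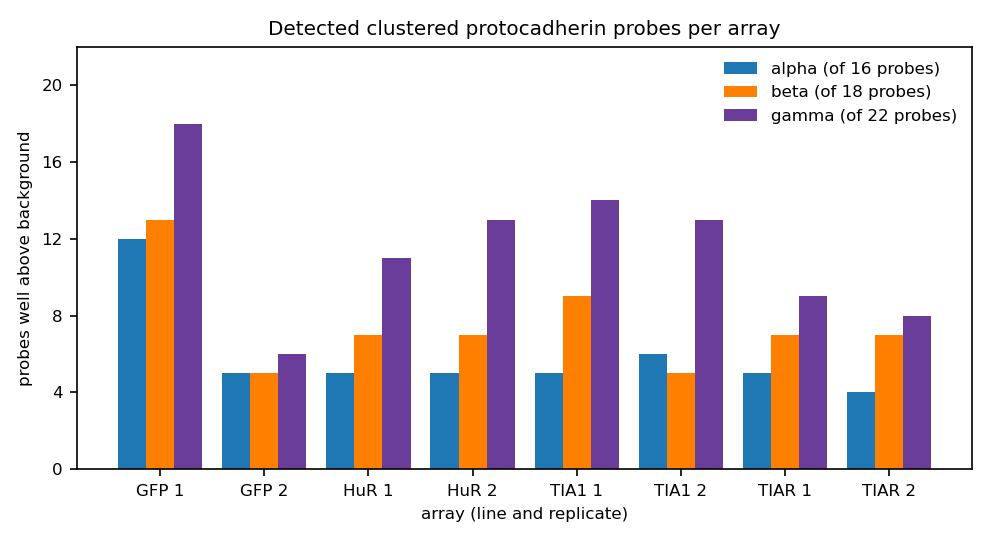
Number of clustered protocadherin probes well above background on each array, by cluster (bars, from 0, of 16 alpha, 18 beta and 22 gamma probes). GFP 1 has 43 detected probes in all, GFP 2 has 16, and the 6 other arrays have 19 to 28.

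The set common to both arrays of all 4 lines held 11 genes. Over the whole array, counted by probe, 24959 of 50599 were well above background on all 8 arrays. Of the alpha isoforms it held PCDHA5 and PCDHA7, of the beta genes PCDHB2, PCDHB11 and PCDHB13, and of the gamma isoforms PCDHGA2, PCDHGA7, PCDHGA12 and PCDHGB4. The other 2, PCDHA11 and PCDHGA8, counted through probes that lie beyond the last variable exon of their cluster and so read the constant exons, while their own variable exons were not well above background on any array. By variable exons alone the count was 18 genes in HuR, 18 in TIA1, 14 in TIAR and 12 in GFP cells. PCDHB15 and PCDHGA3 joined the set in HuR, TIA1 and TIAR cells. For the only probes of PCDHGA2, PCDHGA3, PCDHGA12 and PCDHGB4 the array design also lists other gamma isoforms, which may account for their detection.

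PCDHA7 had signals of -3.09 and -3.07 in HuR, -2.40 and -2.38 in TIA1, -2.62 and -2.61 in TIAR, and -1.49 and -2.77 in GFP cells. PCDHA7 was higher in TIA1 and TIAR than in HuR cells without overlap, with log2 fold changes of 0.69 (SE 0.09, limma adjusted p = 0.0081) and 0.47 (SE 0.09, limma adjusted p = 0.027), under the 2-fold limit for a call. The beta gene PCDHB13 read -0.95 and -1.21 in HuR, -0.81 and -1.03 in TIA1, -0.84 and -0.97 in TIAR, and -0.33 and -1.05 in GFP cells. PCDHB13 values overlapped between the HuR, TIA1 and TIAR lines, and its log2 fold change was 0.16 (95% interval -0.24 to 0.56) for TIA1 and 0.17 (-0.20 to 0.54) for TIAR versus HuR cells. Over detected member probes, the 2 arrays of a line differed by a median of 0.15 (HuR), 0.18 (TIA1), 0.16 (TIAR) and 0.51 (GFP) on the log2 scale, against 0.10, 0.15, 0.16 and 0.36 over all detected probes.

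Of the other genes, 20 were detected on no array or on GFP 1 alone. No array detected PCDHA2, PCDHA9, PCDHAC1, PCDHB6, PCDHB7 or PCDHB10. Another 14 genes were detected on GFP 1 and on no other array, among them PCDHA1, PCDHA3, PCDHA8, PCDHA13, the C-type isoforms PCDHAC2, PCDHGC3, PCDHGC4 and PCDHGC5, and the pseudogenes PCDHB17 and PCDHB18. GFP 1 detected 76.8% of member probes and 86.0% of all probes, against 28.6% and 53.2% on GFP 2, so this count is not read as a result about the members. C-type isoforms are the members that neurons commonly transcribe without choosing among promoters, and all 5 on the array were undetected on each array other than GFP 1.

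Some variable exons were far brighter on GFP 1 than on GFP 2. PCDHA13 read 1.10 on GFP 1, -7.19 on GFP 2 and between -7.85 and -6.93 on the 6 arrays of the other lines. PCDHA4 read 1.05 on GFP 1 and -6.00 on GFP 2, and only HuR 1 among the other arrays was well above background (-3.36, against -8.17 on HuR 2). Against the dimmest signal well above background on GFP 2, the GFP 1 signal was at least 95.8-fold higher for PCDHA13 and at least 92.4-fold for PCDHA4. For PCDHGA5 it was at least 25.9-fold higher with a probe at chr5:140746280-140746339 (hg19) and at least 2.99-fold with the adjacent probe at chr5:140746220-140746279. PCDHB14, PCDHB15 and PCDHGB6, although detected in other lines, were not well above background on either GFP array. What part the higher background of GFP 1 has in these values was not tested.

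**Figure D3:**
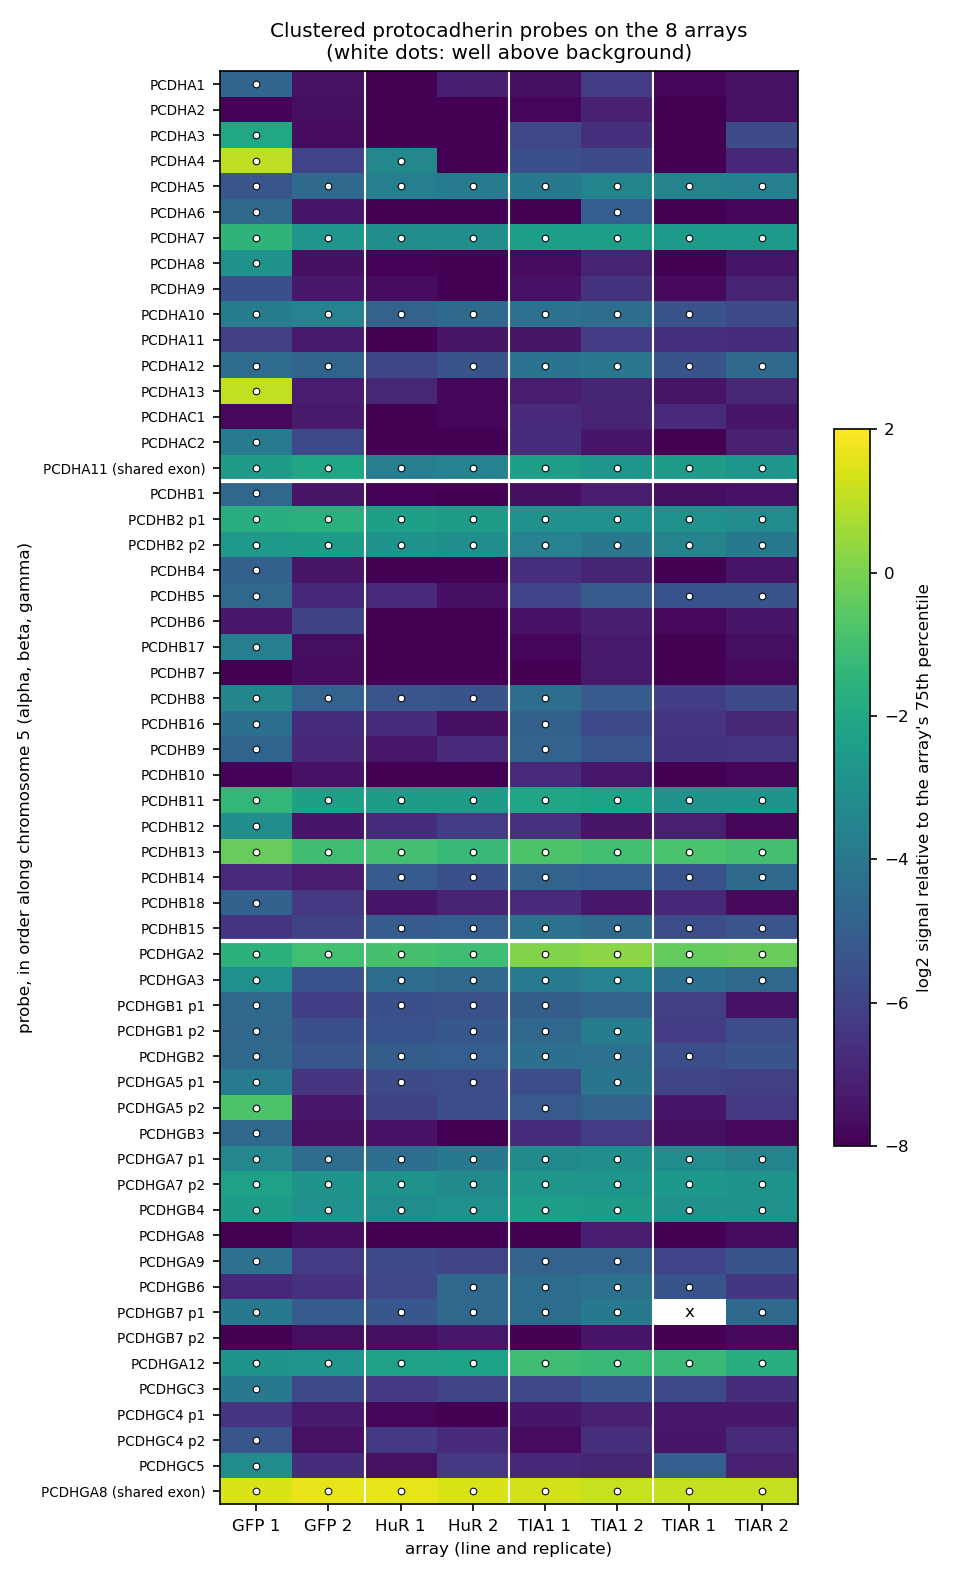
Log2 signal relative to the 75th percentile of the array (colour) of the 56 probes (rows, in order along chromosome 5, clusters separated by white lines) on the 8 arrays (columns). White dots mark probes well above background, p1 and p2 are different probes of a gene, and the x marks an outlier spot that was left out. The rows with 8 dots form the set common to all lines, and the GFP 1 column has dots in most rows.

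Probes of PCDHGA2, PCDHGA7, PCDHGA12, PCDHGB1, PCDHA12 and the alpha constant exon read higher in TIA1- than in HuR-expressing cells. Whether they passed the test depended on the background correction, as given below. Of 26 member probes tested, 6 were upregulated and 0 downregulated, 23.1% of the members tested against 13.4% of all probes tested. In the upward direction alone 8.5% of all probes were called. Calls required a change of 2-fold or more with a limma p under 0.05 after Benjamini-Hochberg adjustment over all probes tested. The median log2 fold change was 0.67 over the member probes tested and 0.08 over all probes tested, and 23 of the 26 were above 0. By cluster the median was 0.69 for 5 alpha probes, 0.31 for 7 beta probes and 0.81 for 14 gamma probes. These probes passed a filter on detection in 1 or both lines, which favours a difference where a probe was detected in 1 line only, and they do not stand for all 56. The called probes of PCDHA12 and PCDHGB1 passed it through TIA1 cells alone, which favours a higher value there. The called share is therefore not read as a result about the members. Over the 18 member probes well above background on all 4 arrays the median was 0.62, with 15 above 0, against 0.10 over all such probes.

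**Figure D4:**
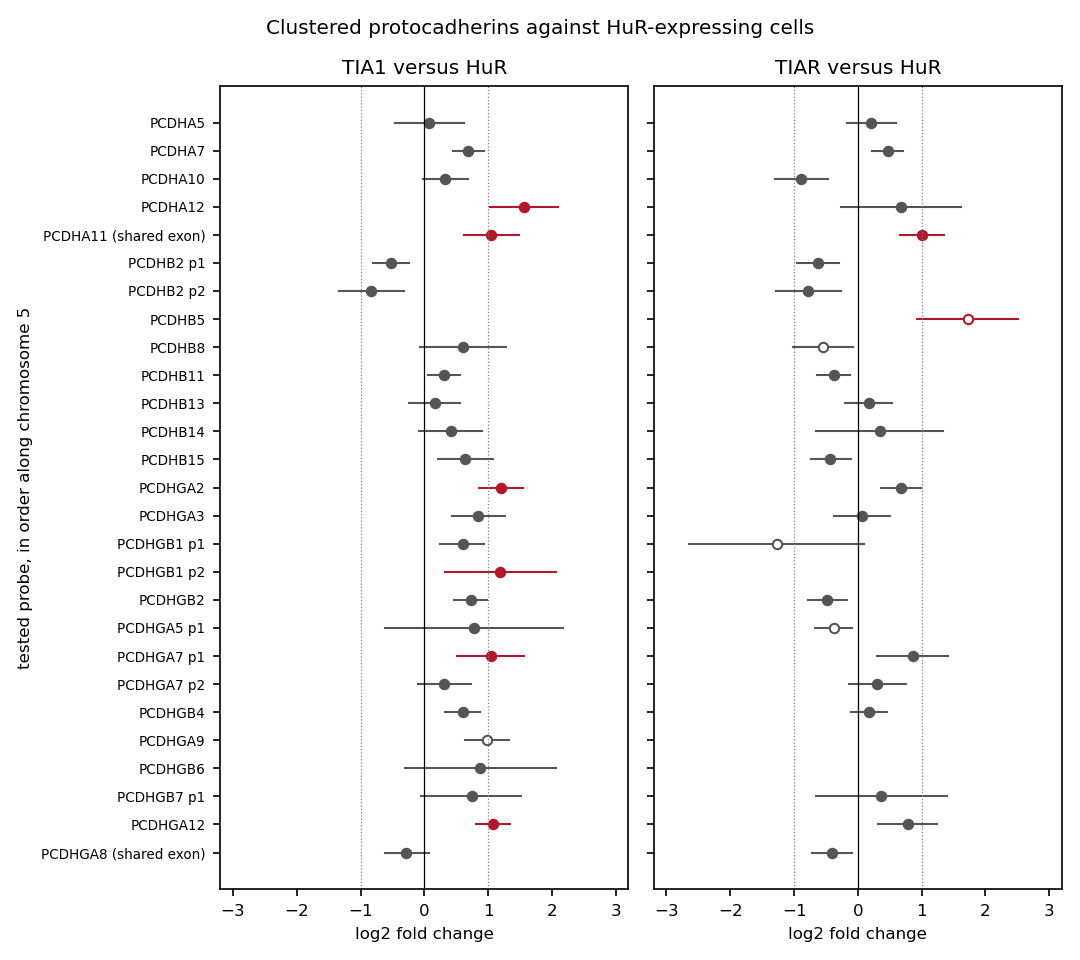
Log2 fold change of TIA1 (left) and TIAR (right) versus HuR cells for each member probe tested, in order along chromosome 5, with 95% intervals from limma. Red marks the probes that passed the test (6 on the left, 2 on the right), open circles mark probes that neither array of 1 of the lines detected, so that the fitted value there is no estimate of size, and dotted lines mark a fold change of 2.

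The gamma isoforms PCDHGA2, PCDHGA7, PCDHGA12 and PCDHGB1 are adhesion proteins of the gamma A and gamma B subfamilies. PCDHGA12 (chr5:140812359-140812418, hg19) read -1.11 and -1.22 in TIA1 and -2.29 and -2.21 in HuR cells, and both TIA1 arrays were above both HuR arrays. This gave a log2 fold change of 1.08 (SE 0.10, limma adjusted p = 0.0043). PCDHGA2 (chr5:140720840-140720899) read 0.10 and 0.28 in TIA1 against -0.90 and -1.10 in HuR cells. Again the lines did not overlap, and the log2 fold change was 1.20 (SE 0.13, limma adjusted p = 0.0056). The array design lists PCDHGA10 beside PCDHGA12, and PCDHGA1, PCDHGA3 and PCDHGA11 beside PCDHGA2, as transcripts that share the probe, so these near-identical isoforms may contribute.

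PCDHGA7 and PCDHGB1 had a call by 1 of their 2 probes. The called PCDHGA7 probe (chr5:140764098-140764157), whose design also lists PCDHGA8, read -3.27 and -3.02 in TIA1 and -4.40 and -3.97 in HuR cells. For this probe the log2 fold change was 1.04 (SE 0.19, limma adjusted p = 0.018), while the other PCDHGA7 probe had 0.31 (95% interval -0.10 to 0.73, limma adjusted p = 0.17). The called PCDHGB1 probe (chr5:140732188-140732247) read -4.62 and -3.75 in TIA1 and -5.50 and -5.26 in HuR cells, where 1 of the 2 HuR arrays was well above background. The log2 fold change there was 1.19 (SE 0.32, limma adjusted p = 0.045), against 0.60 (SE 0.13, limma adjusted p = 0.026) for the other probe.

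PCDHA12, an alpha isoform, read -4.20 and -4.02 in TIA1 cells against -5.91 and -5.43 in HuR cells (chr5:140257377-140257436), with no overlap. The log2 fold change of PCDHA12 was 1.56 (SE 0.20, limma adjusted p = 0.0078), and HuR 1 was not well above background. The alpha constant exon (chr5:140390896-140390955, named PCDHA11 by the array) read -2.40 and -2.76 in TIA1 and -3.71 and -3.57 in HuR cells, a log2 fold change of 1.05 (SE 0.16, limma adjusted p = 0.011). The alpha constant exon and PCDHA12 were thus both higher in TIA1 cells. The other alpha probes tested had log2 fold changes of 0.08 (PCDHA5), 0.69 (PCDHA7) and 0.33 (PCDHA10), and none of them was called. The gamma constant exon (chr5:140892394-140892453, named PCDHGA8) did not move with the called gamma variable exons, with 1.33 and 1.17 in TIA1 and 1.63 and 1.42 in HuR cells. Its log2 fold change was -0.28 (95% interval -0.62 to 0.07, limma adjusted p = 0.15), and it was the 1 gamma probe of the 14 tested that lay below 0.

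Beta genes were not called in this comparison. PCDHB2, with both probes, was lower in TIA1 cells by less than the 2-fold limit: the probe at chr5:140476755-140476814 read -3.55 and -4.01 in TIA1 against -2.88 and -3.03 in HuR cells. Its log2 fold change was -0.83 (SE 0.19, limma adjusted p = 0.029), and that of the other probe, whose design also lists PCDHB3, was -0.52 (SE 0.10, limma adjusted p = 0.022).

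The calls were sensitive to the background correction. With normexp correction 0 of the 26 probes were called in TIA1 versus HuR cells, where 7.66% of all probes were still called. The 6 probes then missed the 2-fold limit alone, with log2 fold changes of 0.75 to 1.00 and limma adjusted p-values of 0.0028 to 0.024. In the authors' normalized table the count was 0 of the 26 and 5.87% of all probes, and the 6 log2 fold changes lay between 0.34 and 0.89. Quantile normalization called 2, and without HuR 1 there were 3.

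**Figure D5:**
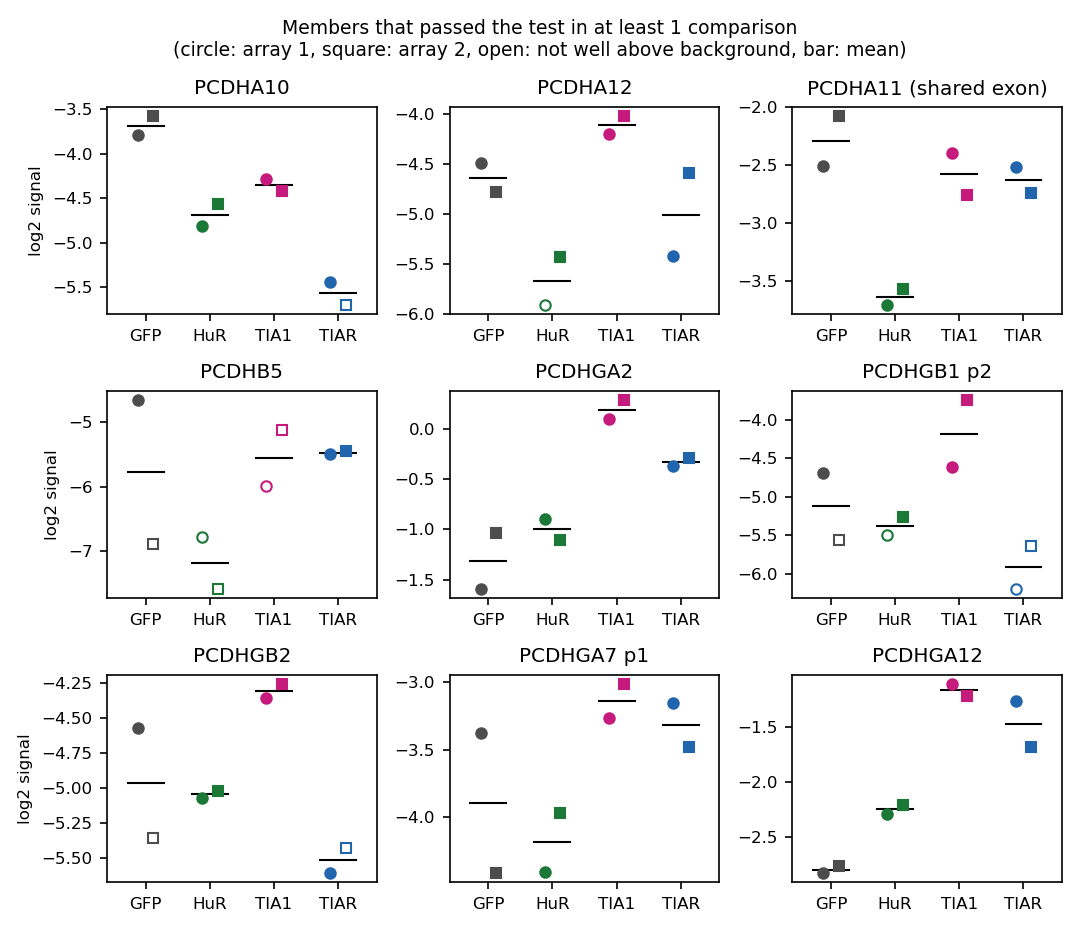
Log2 signal on each array of the 9 probes that passed the test in at least 1 comparison (circle: array 1, square: array 2, bar: mean of the line, open: not well above background, vertical scales differ). PCDHGA2, PCDHGA12 and the alpha constant exon separate TIA1 and TIAR from HuR cells, while PCDHGB2 is lower in TIAR than in TIA1 cells.

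In TIAR- versus HuR-expressing cells, 24 member probes were tested, and 2 were upregulated and 0 downregulated. The called share was 8.33% of the members tested against 10.1% of all probes, and 7.06% of all probes were called in the upward direction, so that the members were near the background. The median log2 fold change was 0.18 over the members and 0.05 over all probes tested. The alpha constant exon read -2.52 and -2.74 in TIAR cells, above both HuR arrays, with a log2 fold change of 1.01 (SE 0.13, limma adjusted p = 0.012). PCDHB5, a beta gene, read -5.49 and -5.45 in TIAR cells, where it was well above background, against -6.78 and -7.59 in HuR cells, where it was not. It was at least 1.47-fold higher in TIAR cells (limma adjusted p = 0.021). PCDHB5 entered this test through TIAR cells alone, which favours a higher value there. In TIA1 cells it read -5.99 and -5.12, around the TIAR values, although neither TIA1 array was well above background.

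PCDHGA2 and PCDHGA12, called in TIA1 cells, lay between the HuR and the TIA1 arrays in TIAR cells. PCDHGA2 read -0.37 and -0.29 in TIAR cells, above both HuR and below both TIA1 arrays, and its log2 fold change against HuR was 0.68 (SE 0.12, limma adjusted p = 0.021). PCDHGA12 read -1.26 and -1.68, with a log2 fold change of 0.78 against HuR (SE 0.17, limma adjusted p = 0.036). Neither reached the 2-fold limit. Both comparisons use the same HuR arrays and are not independent. With normexp correction and in the authors' table, the number of members called was 0, against 5.5% and 4.32% of all probes. Without HuR 1 and without HuR 2 there were also 0, but only 0.0% and 2.08% of all probes were called then. Without TIAR 1 the calls turned, with 0 members higher and 3 lower (PCDHA10, PCDHB2 and PCDHGB1), where 11.8% of all probes were called.

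TIAR and TIA1 cells were compared directly with 24 member probes, of which 2 were downregulated in TIAR cells and 0 upregulated (8.33% against 2.35% of all probes, and 1.1% of all probes in the downward direction). Both called probes passed the detection filter through TIA1 cells alone, which favours a value below 0, so this share is not read as a result about the members. Over the 16 member probes well above background on all 4 arrays the median log2 fold change was -0.20, against -0.04 over all such probes. Of these 16, 13 were below 0 and 3 above. The gamma isoform PCDHGB2 (chr5:140741995-140742054) read -5.61 and -5.43 in TIAR against -4.36 and -4.26 in TIA1 cells. The values did not overlap, 1 TIAR array was well above background, and the log2 fold change was -1.21 (SE 0.13, limma adjusted p = 0.032). The alpha isoform PCDHA10 (chr5:140238109-140238168) read -5.44 and -5.70 in TIAR, of which 1 was well above background, and -4.28 and -4.42 in TIA1 cells. Its log2 fold change was -1.22 (SE 0.15, limma adjusted p = 0.036). Against HuR cells PCDHA10 was also lower in TIAR cells, with a log2 fold change of -0.89 (SE 0.15, limma adjusted p = 0.021), where the alpha constant exon was higher. PCDHA10 entered that test through HuR cells alone, which favours a value below 0.

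Of the 12 gamma probes tested, 7 were well above background on all 4 arrays, and these had a median log2 fold change of -0.30 in TIAR versus TIA1 cells, against -0.04 over all such probes. All 7 were below 0, and none of them was called. The other 5 passed the filter through TIA1 cells alone, which favours a value below 0. PCDHGB1, detected in TIA1 cells by the probe called above, was not well above background in TIAR cells (-6.20 and -5.64) and was at least 3.04-fold higher in TIA1 cells, with a limma adjusted p of 0.079 that missed the threshold. PCDHGB6 read -4.48 and -4.26 in TIA1 and -5.42 and -6.43 in TIAR cells, with a limma adjusted p of 0.096. Members called numbered 0 with normexp correction and in the authors' table, against 1.02% and 0.998% of all probes. They also numbered 0 without the detection filter, with the replicate number as a block and without any 1 array, settings that called at most 0.0811% of all probes. The log2 fold changes of both stayed at -1.21 and -1.22 without the filter and with the block.

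No member probe was called against the GFP control with both GFP arrays, where 0.0% of all probes were called in each of the 3 comparisons. Member probes with an unadjusted limma p under 0.05 numbered 8 of 23 for TIA1, 9 of 20 for TIAR and 8 of 23 for HuR versus GFP cells, which is 34.8%, 45.0% and 34.8% of the members tested against 21.7%, 16.4% and 17.2% of all probes. Without GFP 1, TIA1 versus GFP cells had 8 members upregulated and 1 downregulated, where 11.4% of all probes were called. TIAR versus GFP cells had 1 upregulated and 2 downregulated (6.38% of all probes), and HuR versus GFP cells had 2 and 2 (8.53% of all probes). With GFP 2 as the lone control array, its spread is assumed to be that of the other arrays in the fit. A probe not well above background on GFP 2 passed the filter through the other line alone, with or without GFP 1. In TIA1 versus GFP cells these included PCDHB15, PCDHGA3, PCDHGA9, PCDHGB2 and PCDHGB6. The filter favours a higher value in the other line for such probes, so the counts are not read as a result about the members.

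Some members lay apart from the control on both GFP arrays. Of those given here, PCDHB14, PCDHB15 and PCDHGB6 were tested through the other line alone, which favours a higher value there. PCDHB15, a beta gene, read -6.50 on GFP 1 and -6.07 on GFP 2, not well above background, and was well above background on both arrays of the HuR (-5.09 and -5.02), TIA1 (-4.22 and -4.60) and TIAR cells (-5.58 and -5.38). It was at least 2.62-fold higher in TIA1 than in GFP cells (limma adjusted p = 0.10), and at least 2.10-fold higher against GFP 2 alone (limma adjusted p = 0.034). Its neighbour PCDHB14 read -6.77 and -7.18 in GFP cells against -5.14 and -5.56 in HuR cells. PCDHB14 was at least 1.37-fold higher in HuR cells (limma adjusted p = 0.19), and at least 1.10-fold against GFP 2 alone (limma adjusted p = 0.024).

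PCDHGB6 read -6.85 and -6.58 in GFP cells and -4.48 and -4.26 in TIA1 cells. This gamma isoform was at least 2.69-fold higher in TIA1 than in GFP cells (limma adjusted p = 0.095), or at least 2.16-fold against GFP 2 alone (limma adjusted p = 0.021). PCDHGA12 read -2.83 and -2.77 in GFP cells, below every array of the other lines, and its log2 fold change for TIA1 versus GFP cells was 1.63 (SE 0.19, limma adjusted p = 0.095) and 1.60 without GFP 1 (SE 0.16, limma adjusted p = 0.024).

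PCDHA10 and the PCDHB2 probes were highest in GFP cells, and PCDHA10 entered the test of TIAR versus GFP cells through GFP cells alone. PCDHA10 read -3.79 and -3.58 there, above every array of the other lines, and its log2 fold change for TIAR versus GFP cells was -1.88 (SE 0.22, limma adjusted p = 0.16) and -1.99 without GFP 1 (SE 0.20, limma adjusted p = 0.032). The PCDHB2 probe that shares PCDHB3 read -1.74 and -1.64 in GFP, -2.36 and -2.52 in HuR, -2.96 and -2.96 in TIA1 and -2.98 and -3.16 in TIAR cells. Both GFP arrays were above both HuR arrays, and HuR was above TIA1 and TIAR, which differed by -0.11 (TIAR minus TIA1, 95% interval -0.43 to 0.22). Without GFP 1 this probe had log2 fold changes of -1.32 for TIA1 (SE 0.16, limma adjusted p = 0.028) and -1.43 for TIAR versus GFP cells (SE 0.18, limma adjusted p = 0.042).

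The protocadherins outside the clusters are the nearest relatives and are single genes without a choice of promoters. Of the 14 other protocadherin-type genes of the list used here, 10 were tested in TIA1 versus HuR cells, and 3 were upregulated and 0 downregulated, with a median log2 fold change of 0.63. Over all probes tested there, 13.4% were called, 8.5% upward, and the median was 0.08. These shares are of single probes, while the list counts genes called by any of their probes. PCDH20 rose by a log2 fold change of 3.01 in TIA1 (SE 0.10, limma adjusted p = 0.0018) and 4.19 in TIAR cells (SE 0.13, limma adjusted p = 0.0032) versus HuR cells, and it was listed because the study's tables name it. PCDH8, which takes part in the turnover of cadherins at the cell surface, rose by 1.67 (SE 0.12, limma adjusted p = 0.0031) and 2.94 (SE 0.15, limma adjusted p = 0.0037). PCDH10 was called by 1 of its 2 probes in TIA1 cells (1.13, SE 0.27, limma adjusted p = 0.033).

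The regulators of promoter choice were detected in every line in 20 of 22 cases, CTCF and the cohesin subunits among them. In TIA1 versus HuR cells 1 of the 20 tested was called, and in TIAR versus HuR cells 3, where 13.4% and 10.1% of all probes were called. The list counts genes called by any of their probes and the shares count single probes, so they are unlike measures. DNMT3A, a DNA methyltransferase, was upregulated by 1 of 3 probes, with log2 fold changes of 1.36 (SE 0.19, limma adjusted p = 0.0094) and 1.09 (SE 0.12, limma adjusted p = 0.0093). SMC1A, a cohesin subunit, fell by 1.01 in TIAR cells by 1 of 3 probes (SE 0.10, limma adjusted p = 0.0072). SMCHD1, a chromatin repressor of the clusters, was at least 1.49-fold lower in TIAR cells by 1 of 3 probes that was not well above background there (limma adjusted p = 0.010). That probe entered the test through HuR cells alone, which favours a lower value in TIAR cells. The median over the list was 0.17 for TIA1 and 0.00 for TIAR versus HuR cells.

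Downstream, the 15 listed partners and processing enzymes were all detected in every line, the WAVE complex subunits that bind the cytoplasmic domain and the ADAM10 and gamma-secretase proteases that cut it among them. RET, a receptor kinase that associates with clustered protocadherins, was the 1 gene called in either comparison with HuR, by 1 of 2 probes, with log2 fold changes of 1.08 in TIA1 (SE 0.14, limma adjusted p = 0.0083) and 1.12 in TIAR cells (SE 0.11, limma adjusted p = 0.0074). Of the 18 genes that flank the clusters on 5q31, 16 were tested in each of these comparisons, where 13.4% (TIA1) and 10.1% (TIAR) of all probes were called. Here too the list counts genes and the shares count probes. KIAA0141, called by both probes, fell by 1.19 on the log2 scale in TIA1 cells (SE 0.09, limma adjusted p = 0.0034), no other flanking gene was called, and the median was 0.05 for TIA1 and 0.07 for TIAR cells.

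Markers of other cell types differed in the same comparisons with HuR cells, neuron markers among them. SNAP25, a synaptic fusion protein, rose by 2.60 in TIA1 (SE 0.10, limma adjusted p = 0.0018) and 2.27 in TIAR cells (SE 0.09, limma adjusted p = 0.0037). TUBB3, a neuronal tubulin, rose by 1.43 (SE 0.10, limma adjusted p = 0.0029) and 1.80 (SE 0.09, limma adjusted p = 0.0037), and RBFOX3, a neuronal splicing factor, rose by 2.02 in TIA1 cells by 1 of 2 probes (SE 0.12, limma adjusted p = 0.0026). The other 3 of the 6 markers, SYT1, STMN2 and DCX, were not detected in any line. Among the HEK293 markers NEFL fell by 1.40 in TIA1 (SE 0.09, limma adjusted p = 0.0028) and by 1.68 in TIAR cells (SE 0.11, limma adjusted p = 0.0049), and NEFM by 1.05 in TIAR cells (SE 0.11, limma adjusted p = 0.0088). No other HEK293 marker was called, and the median log2 fold change over the 7 was -0.14 for TIA1 and 0.25 for TIAR cells. Of the fibroblast markers LUM fell by 1.65 in TIA1 cells (SE 0.15, limma adjusted p = 0.0044) and DCN rose by 1.46 in TIAR cells by 1 of 2 probes (SE 0.09, limma adjusted p = 0.0047). Over the 3 fibroblast markers tested the median was 0.38 for TIA1 and 1.0 for TIAR cells. The part of these cell type markers in the protocadherin values was not tested. Fewer cells that transcribe an isoform and less RNA of it per cell cannot be told apart in these bulk samples.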

How the data were processed

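RNA of FT293 cells on day 3 of tetracycline was hybridized to 8 one-colour Agilent arrays, 2 for each line. The authors deposited the output of the scanner software, and its processed signal is an intensity with the background subtracted and the spatial trend removed, without normalization between arrays. The authors' deposited table holds log2 quantile-normalized values, in which the TIAR arrays have a median of 7.08 and the others 7.23 to 7.24. Signals were log2-transformed, the 75th percentile of each array was subtracted, spots marked as outliers were dropped, and the rest were averaged per probe. The 4 arrays of a comparison were fitted with limma 3.58.1 in R 4.3.3 on all probes detected on both arrays of 1 or both lines, and the calls use Benjamini-Hochberg adjustment. The script was tested on simulated data. For a probe that neither array of a line detected, the fold is a bound, taken per array against the larger of its signal and the dimmest detected signal. Depth does not apply to arrays, and their number limits the precision.

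Full values are given for members called in at least 1 comparison, up to 30, with the tested probe of highest mean signal or, where probes disagree, both; from the lists, called genes were named, up to 6 a list. The probes named PCDHA11 and PCDHGA8 that lie beyond the last variable exon were read as constant-exon probes. Other silent or GFP 1 members, PCDHB13, PCDHA7, PCDHB14, PCDHB15 and PCDHGB6 were named after their values were seen. The members and lists were chosen with earlier results of these data known. Positions of probes come from the array design (hg19), promoters from RefSeq (GRCh38). The label protocol names a different array model from that in the methods and file headers, which was used. Alternatives were normexp correction with an offset of 50, quantile normalization, the authors' table, no detection filter, all 8 arrays in one fit, the replicate number as a block and leaving out each array. A slide block could not be fitted with 1 slide. Python 3.11.15, pandas 2.3.3, scipy 1.17.1 and matplotlib 3.10.9 were used.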

Additional observations from a re-analysis of the deposited data

How the results depend on the processing

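Counts of called member probes moved with most settings. In TIA1 versus HuR cells (6 calls) there were 0 with normexp correction, 0 in the authors' table, 2 with quantile normalization, and 3 to 8 leaving out each array. In TIAR versus HuR cells (2 calls) there were 0 with normexp correction, 0 in the authors' table, 0 without the detection filter, 1 with all 8 arrays in one fit, and 0 to 3 leaving out each array, the 3 without TIAR 1 all being lower, while quantile normalization called 1 up and 1 down. In TIAR versus TIA1 cells (2 calls) there were 0 with normexp correction, 0 in the authors' table, 0 without the filter, 1 with all 8 arrays, 0 with the replicate block, and 0 to 0 leaving out each array. In the comparisons with GFP cells (0 calls), all 8 arrays in one fit gave 7 for TIA1, 6 for TIAR and 2 for HuR, and leaving out each array gave 0 to 20, 0 to 27 and 0 to 30, the highest without GFP 2. Most of these were lower (15, 23 and 27), and 45.0%, 41.6% and 47.2% of all probes were called in that setting. The cause was not tested.

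The replicate numbers share only a number: deviations of same-numbered arrays from their line means correlated between -0.09 and 0.18 over 24959 probes. With the replicate block, 6 probes were called in TIA1 versus HuR and 2 in TIAR versus HuR cells. Of the 100 refits of called members, 36 kept the call and 0 changed sign. Detection on at least 1 of the 2 arrays raised the GFP count from 14 to 39 genes, and GFP 2 alone, chosen after seeing the data, gave 14.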
